A study of Mus musculus with 12 samples.

Results

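The liver cells described here form a top and a bottom set of 5993 cells each, selected on the share of a cell's UMIs that fell in 4 rows of the count table, row13158, row13159, row13160 and row13162. A UMI is a molecular tag, so a count is a number of captured RNA molecules. Within each of 12 libraries, the cells in which at least 8% of the UMIs were mitochondrial were ranked by that share and divided into 3 sets of nearly equal size, with ties kept in the order of the table's columns. Of 31003 cells in the series 17995 entered the ranking, the top and bottom sets held 11986 of them, 38.7% of all cells, and 6009 cells formed a middle set. The count table numbers its rows and no table used here gives their gene names. Each row is therefore called by its number, and what the ranking rows encode could not be checked against marker genes.

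The cells came from livers of wild-type 129S6/SvEv mice, female or male, taken at zeitgeber time 10 (ZT10) or 22 (ZT22), which count the hours from lights on. The labels do not give the animals' age. Each of the 4 groups (female ZT10, female ZT22, male ZT10 and male ZT22) had 3 libraries. All groups shared a collagenase perfusion, a centrifugation that enriched hepatocytes, freezing and thawing before 10x Genomics Chromium v3 libraries were made. The labels do not say whether replicates were separate animals, so the p-values below measure the spread between these libraries, which may in part be technical.

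Hepatocytes, the main cells of the liver, do not all express the same genes. Blood runs from the portal tracts to the central vein of each lobule, and hepatocytes along that path divide the metabolic work, with enzymes such as many cytochromes P450 made mostly near the central vein. In rodents many of these hepatic genes are also made at different levels in females and males. Whether the ranking follows that axis could not be checked without gene names.

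Per library, the ranked cells ranged from 361 with 1494844 UMIs (male ZT10 replicate 2) to 2566 with 9641809 UMIs (male ZT10 replicate 1). Summed over the other rows, the top sets held 402734 to 2854458 UMIs and the bottom sets 422892 to 2853455. Libraries shared few cell barcodes, with 120 of 30883 found in a pair of libraries and none in more. Male ZT22 replicate 2 stood apart by its intronic fraction, whose median was 0.414 in its top and 0.478 in its bottom set. In the other libraries the medians lay between 0.201 and 0.305 in the top and between 0.196 and 0.298 in the bottom set. Male ZT10 replicate 2 was the smallest library, and 46.3% of its middle set fell outside the main population, which is the set of clusters that held 86.8% of all cells and 96.1% of the ranked cells. Most of the middle-set cells of male ZT10 replicate 2 outside the main population came from a second part of that library, described at the end. Results below are given with and without these libraries where they moved.

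The 4 ranking rows were not equally shared between the sexes. In the ranked cells, row13158 had 6944 UMIs in the 6 female libraries and 49 in the 6 male ones, and row13159 had 4341 and 13. Row13160 had 6311 and 991 UMIs. Row13162 had nearly the same number in both, 9599 in females and 9660 in males. The ranking of male cells therefore rested mainly on row13162, and that of female cells on all 4 rows.

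The summed level of the 4 rows is given as a description with no test, since these rows define the sets. Per 1000000 UMIs, a scale called CPM below, it was 1142, 623.0 and 1077 in the 3 female ZT10 libraries and 935.4, 817.7 and 730.4 in the female ZT22 libraries. It was 350.9, 260.2 and 254.6 in the male ZT10 libraries and 341.3, 330.0 and 327.4 in the male ZT22 libraries. Every female library lay above every male library, and the times overlapped within each sex. The group means were 947.2 ± 282.6 in females at ZT10, 827.8 ± 102.9 in females at ZT22, 288.6 ± 54.0 in males at ZT10 and 332.9 ± 7.37 in males at ZT22 (SD, n = 3). Averaged over the times, females exceeded males by 576.8. Averaged over the sexes, the difference of ZT22 from ZT10 was -37.5, and it was 11.1 without female ZT10 replicate 1, the 1 library whose removal turned it.

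**Figure D1:**
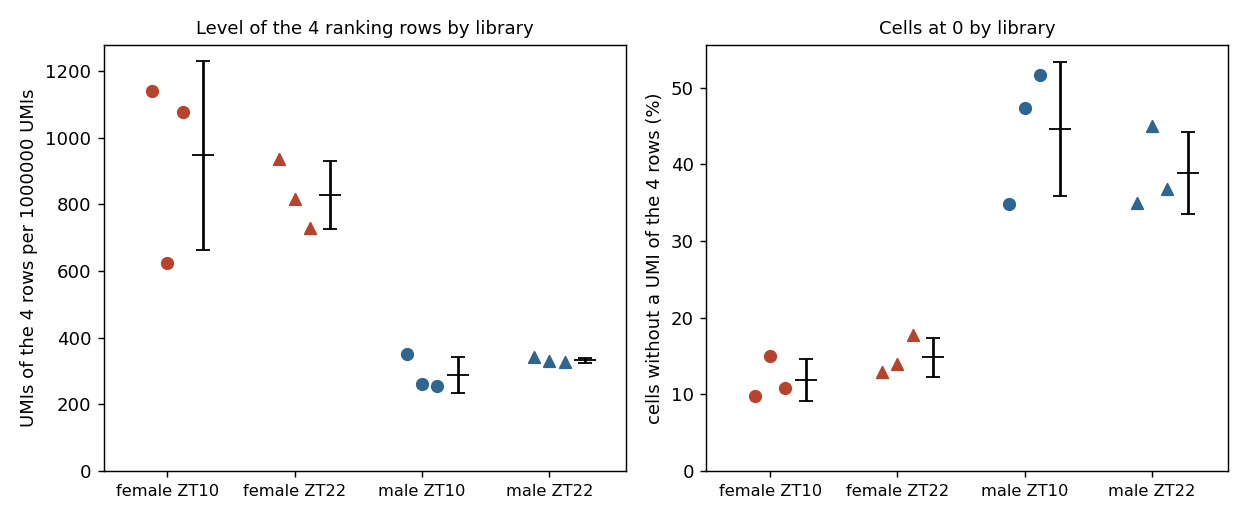
UMIs of the 4 ranking rows per 1000000 UMIs (left) and percent of ranked cells with no UMI of the 4 rows (right), 1 point per library by group, with mean and SD of 3 libraries as black bars. The female libraries lie between 623.0 and 1142 on the left, all above the male libraries, which lie between 254.6 and 350.9.

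Because these levels are low, a cell's rank rested on few molecules. A female library held on average 2.51 to 3.41 UMIs of the 4 rows per cell and a male library 0.845 to 1.54. Between 9.82% and 17.7% of the cells of a female library had none, against 34.8% to 51.7% in a male library. The bottom set of every male library was made up entirely of cells without a UMI of the 4 rows. In females, 29.5% to 53.1% of the cells in the bottom set had none. Cells at 0 also made up 4.44% to 55.0% of the middle set in male libraries, where the order of the columns placed them, and 0% in female libraries. In males the contrast was therefore between cells with some UMIs and cells with none, while in females it was between more and fewer.

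At the upper boundary, the lowest share inside the top set and the highest share just outside it were 0.157% and 0.156% in female ZT10 replicate 1, and 0.0326% and 0.0324% in male ZT10 replicate 2. The lower boundary of the top set lay between 0.0799% and 0.157% in female libraries and between 0.0326% and 0.0469% in male ones. One UMI less would have taken 26.4% to 37.4% of the top set out of it in females and 42% to 65% in males. In the top set the median cell held 4 to 6 UMIs of the 4 rows in females and 2 to 3 in males. As a description of the sorting itself, the 4 rows averaged 1931 ± 356 CPM in the top, 769 ± 217 in the middle and 208 ± 79.6 in the bottom set of female libraries (SD, n = 6). In males they averaged 799 ± 58.4 in the top and 206 ± 58.4 in the middle set.

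A UMI of the 4 rows was also found outside the main population. Over all deposited cells, 87.9% of female and 60.0% of male cells in the main population had at least 1, against 63.2% and 39.7% in the clusters set apart from it. Median depths were 2931 and 3136 UMIs per cell in the main population and 1691 and 2063.5 in the clusters set apart. With every cell thinned to 1000 UMIs, leaving out 103 and 54 shallower cells of the main population and 90 and 18 of the others, the shares were 60.1% and 28.6% in the main population and 44.8% and 20.6% in the clusters set apart. The identity of those clusters is not given by the files, so it is not known which of them, if any, should lack these RNAs, and the part of free RNA in the ranking was not tested.

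When 1 ranking row was held out, each of the 4 was higher in the top set in females, while in males row13160 alone passed the test. With the ranking built from the other 3 rows, the top set held more of row13160 in 12 of 12 libraries, with 325 ± 86.7 CPM against 133 ± 37.3 in females and 48.0 ± 8.38 against 21.3 ± 6.58 in males (SD, n = 6). These CPM and those that follow are scaled by TMM, a factor that aligns libraries on rows that change little. The log2 fold change of row13160 was 1.23 ± 0.087 (SE; adjusted p = 1.4e-15, edgeR's quasi-likelihood test). Row13162 was higher in 11 of 12 libraries, by 0.84 ± 0.049 on the log2 scale (adjusted p = 3.5e-16, edgeR). In females it changed by 1.48, and in males by 0.20 with an adjusted p of 0.63 in edgeR's test. The 3 remaining rows held only 49, 13 and 991 UMIs over the 9149 ranked male cells. Most of the 3047 cells in the male top sets of that ranking therefore had none and were placed by column order. The male value thus cannot decide whether row13162 follows the other rows. Row13158 and row13159 were higher in the top set in 6 of 6 female libraries, by 0.89 (adjusted p = 2.6e-10) and 1.78 (adjusted p = 7.1e-17) in edgeR's test. Over both sexes they did not pass edgeR's test (adjusted p = 0.31 and 0.33), and the male sets held 19 against 13 and 4 against 4 of their UMIs. Each held-out test shares the cell's total UMIs with the ranking. The 4 rows were also chosen together, as neighbours in the table and with earlier results of these data known. Whether the counting could split reads between near-identical rows is not stated. These tests are therefore not independent of the choice of rows.

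With the 4 rows removed, the top and bottom sets differed in many other rows. Of 8235 rows tested, edgeR's quasi-likelihood test with Benjamini-Hochberg adjustment called 1224, or 14.9%, of which 681 (8.27%) were higher and 543 (6.59%) lower in the top set. Most changes were small. The median log2 fold change was 0.31 among the higher and -0.30 among the lower rows, while 46 higher and 27 lower rows differed by 2-fold or more, and 132 and 91 by 1.5-fold or more. In 208 of the higher and 106 of the lower rows, all 12 libraries moved the same way. The called higher rows made up 16.2% of the CPM of the top and 11.9% of the bottom set, and the called lower rows 35.3% and 42.4%.

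The middle set, which was not in the test, lay between the other sets in its mean CPM for 584 of the 681 higher and 479 of the 543 lower rows, and for all 73 rows that changed at least 2-fold. These rows were selected for a difference between the top and bottom set, which by itself makes a middle level between them likely. The share over all rows tested is not given, so these counts are a description only. The split into higher and lower rows depended on the scaling. With total UMIs in place of TMM, 1623 rows were called, 1374 higher and 249 lower, and the median of all rows moved to 0.09 from -0.003 on the log2 scale. The count was 1443 without male ZT22 replicate 2 and 1184 without male ZT10 replicate 2. In edgeR's test it was 580 when each cell was thinned to 1000 UMIs before the ranking and 594 when each cell's UMIs were split at random, with 1 part used to rank and the other to test. With DESeq2 it was 796 (465 higher and 331 lower). With the first 6 digits of the cell names as a block it was 725 (430 higher and 295 lower). Some of these codes, but not all, are shared by libraries of both sexes. In the main population alone it was 1143 by edgeR, with 1203 of the 1205 called rows tested there keeping their sign.

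The largest increase among rows of at least 100 CPM that moved alike in all libraries was in row779. Its level in the top set was 244.6, 317.3 and 222.7 CPM in the female ZT10 libraries, 163.7, 183.8 and 113.9 in the female ZT22 libraries, 102.3, 106.8 and 80.1 in the male ZT10 libraries and 99.1, 81.3 and 90.8 in the male ZT22 libraries. In the bottom set it was 100.5, 95.4 and 72.9, then 37.5, 32.0 and 39.9, then 32.4, 18.9 and 10.6, then 9.31, 72.7 and 18.0, in the same order. Every library was higher in its top set, by 1.12-fold in male ZT22 replicate 2 and by 2.43-fold to 10.6-fold in the others. The sets did not overlap within any group. The log2 fold change was 1.80 ± 0.11 (SE; adjusted p = 6.1e-17, edgeR), with 1.84 in females and 1.77 in males.

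Row5947 was the most abundant of the rows that rose in all 12 libraries. Its top set ran from 1772 through a median of 3521 to 4952 CPM in the 6 female libraries and from 2543 through 5209 to 7263 CPM in the 6 male libraries. Its bottom set ran from 515.3 through 619.0 to 1464 CPM in females and from 1362 through 1721 to 2501 CPM in males. The sets did not overlap within a sex, although the male bottom sets reached into the range of the female top sets. Averaged over libraries, its level was 4250 ± 1569 CPM in the top, 1918 ± 675 in the middle and 1308 ± 630 in the bottom set (SD, n = 12). The log2 fold change was 1.78 ± 0.090 (SE; adjusted p = 7.5e-20, edgeR), with 2.11 in females and 1.46 in males and no call for the sex difference (adjusted p = 0.069).

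Row8182 fell most among rows held to the same limits. Its bottom set ran from 160.9 through 249.4 to 380.3 CPM in females and from 85 through 154.4 to 266.4 CPM in males, and its top set from 46.3 through 59.7 to 148.5 and from 27.9 through 57.4 to 131.1 CPM. It was lower in the top set in 12 of 12 libraries, and the male sets overlapped while the female ones did not. The log2 fold change was -1.56 ± 0.086 (SE; adjusted p = 7.4e-19, edgeR), with -1.88 in females and -1.24 in males. In male ZT22 replicate 2 the ratio of top to bottom set was 0.774, against 0.173 to 0.575 in the other libraries.

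**Figure D2:**
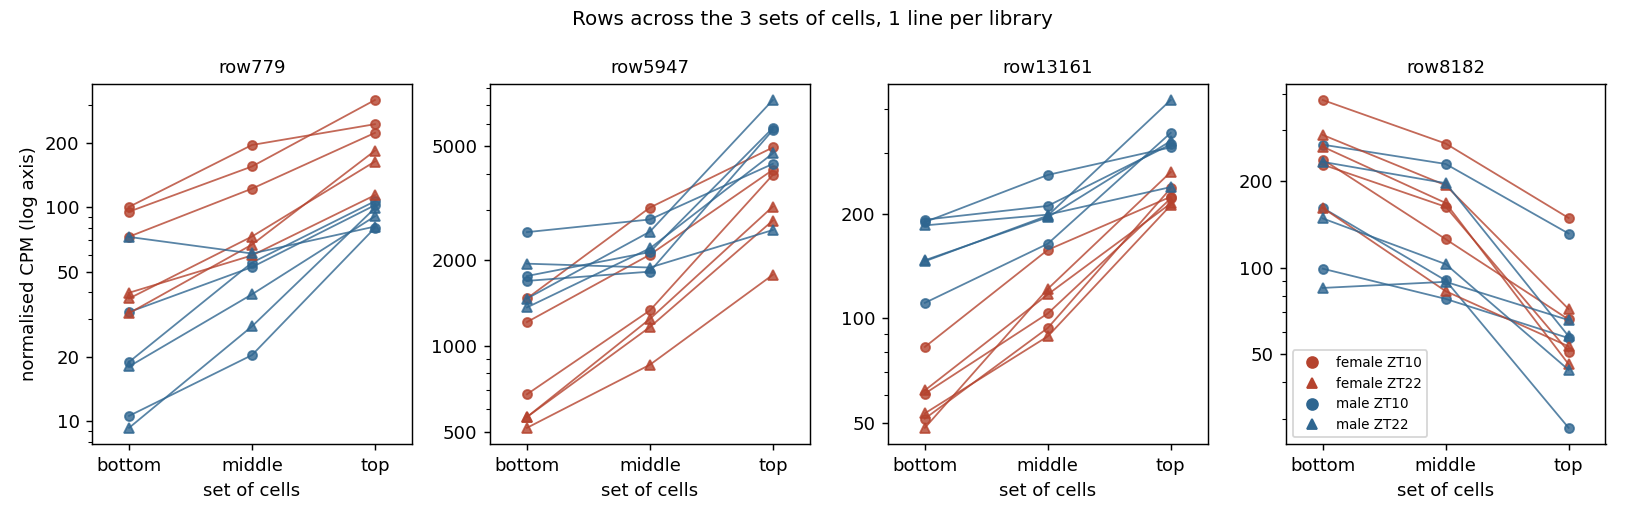
Normalised CPM (log axis) of row779, row5947, row13161 and row8182 in the bottom, middle and top set of cells, with 1 line per library. The middle set lies between the others in all 12 libraries for row13161 and in 11 of 12 for row779, row5947 and row8182.

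Finer steps gave the same order for these rows, more regularly in females than in males as far as counts of libraries show. When cells were cut into 5 equal parts, row779 and row5947 rose at every step in 6 of 6 female libraries and in 4 and 3 of 6 male libraries. The set with the highest share had the highest level in every library. Row5947 averaged 699, 992, 1595, 2594 and 4123 CPM from the lowest to the highest of the 5 in females and 1809, 1789, 2195, 3633 and 6015 CPM in males. In males the first 2 of these were made up of cells without a UMI of the 4 rows to 100% and 88.7%, and their levels of row5947 differed by less than the SD. Row8182 averaged 252 CPM in the lowest and 55.7 CPM in the highest of the 5 in female libraries. It fell at every step in 5 female libraries and 1 male library.

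**Figure D3:**
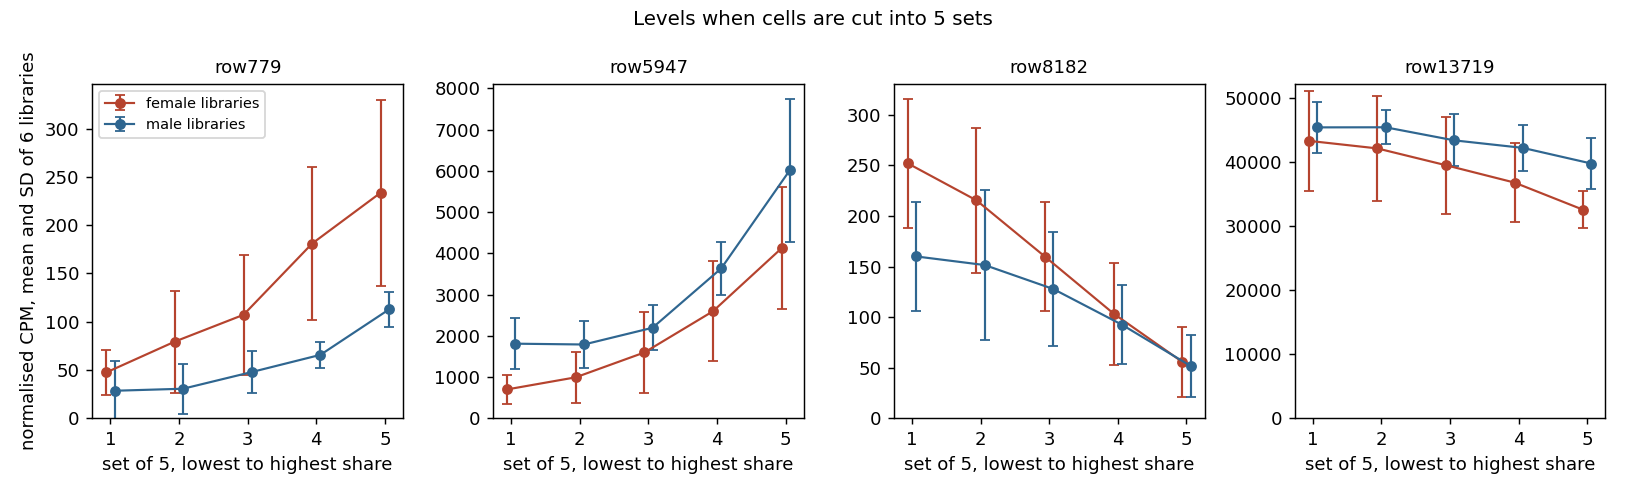
Normalised CPM of row779, row5947, row8182 and row13719 in 5 equal sets of cells from the lowest to the highest share of the 4 rows, with mean and SD of 6 female and 6 male libraries. Row5947 goes from 699 to 4123 CPM in females and from 1809 to 6015 CPM in males, while row13719 goes from 43339 to 32572 CPM in females.

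Row13161, which stands between the ranking rows in the table and was not used to rank, rose with them. Its top set ran from 211.7 through 222.7 to 263.9 CPM in females and from 238.9 through 320.9 to 425.9 CPM in males. Its bottom set ran from 48.3 through 56.9 to 82.6 CPM in females and from 110.7 through 166.1 to 192.4 CPM in males. The sets did not overlap within either sex, and the bottom sets of males lay above those of females. The log2 fold change was 1.5 ± 0.076 (SE; adjusted p = 7.6e-20, edgeR), with 1.96 in females, 1.03 in males and a sex difference of 0.94 (adjusted p = 0.00024). The files do not say whether the counting could split reads between rows with near-identical sequence, so the rise of neighbouring rows carries that uncertainty.

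Of the 40 rows within 20 places of the ranking rows, 22 were tested, and 9 were higher and 2 lower in the top set, 40.9% and 9.09% against 8.27% and 6.59% of all rows. Of the 8 rows nearest to them, 7 were tested, and 5 were called higher and 1 lower. The median log2 fold change was 0.13 over the 22 rows and -0.003 over all rows tested.

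The mitochondrial rows fell in the top set. These are 13 adjacent rows whose summed share equals the deposited mitochondrial percent in every cell. The mitochondrial genome encodes subunits of the respiratory chain and of ATP synthase. All 13 passed the test in the lower direction, against 6.59% of all rows, with log2 fold changes from -0.52 to -0.18 and a median of -0.40. The median was -0.53 in females and -0.25 in males, and for 4 of the 13 the sex difference passed the test. The most abundant, row13719, ran from 24850 through 35913 to 50187 CPM in the 12 top sets and from 28742 through 46899 to 59004 CPM in the 12 bottom sets. These ranges overlapped between libraries, but each library was lower in its own top set. The log2 fold change of row13719 was -0.34 ± 0.040 (SE; adjusted p = 6.6e-09, edgeR).

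Per cell, the median mitochondrial percent was 15.4 ± 2.26 in the top and 19.8 ± 3.77 in the bottom sets (SD, n = 12). It was lower in the top set in 12 of 12 libraries, by 1.90 to 12 percentage points. The mean difference was -4.38 ± 2.90, with an exact two-sided permutation p of 0.000488 by sign flips, the smallest that 12 libraries can give, and an adjusted p of 0.00146 over 3 measures. The cells were selected by a minimum of this percent, and mitochondrial UMIs are part of the total by which the 4 rows were divided. The percent itself was not retested without these UMIs in the total. Its p-value therefore cannot tell a difference between the sets apart from the shared counts and the selection. When mitochondrial UMIs were left out of that total, 12 of the 13 rows were still called lower, with a median log2 fold change of -0.30. When ranking and test used separate UMIs, all 13 were called lower, with a median of -0.29.

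The mitochondrial rows kept the lower direction at each mitochondrial minimum tried, and turned in the cells under 8%. Without any minimum and at a minimum of 5% all 13 were called lower, with median log2 fold changes of -0.39 and -0.49, and at 12% 12 were called lower, with a median of -0.27. In the cells under 8%, which the rule leaves out, the same ranking gave 12 of the 13 mitochondrial rows as higher in the top set and none as lower, with a median log2 fold change of 0.29. There the median mitochondrial percent was higher in the top set by 0.747 points (exact sign-flip permutation p = 0.000488). This p-value has the same limit, since the shared total and the selection by this percent apply here too. Within the main population under 8%, 12 rows were again called higher and none lower, with a median of 0.47. With cells ranked inside 3 levels of mitochondrial percent, which holds that percent nearly level, 4 rows were called lower and 1 higher, with a median of -0.03.

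**Figure D4:**
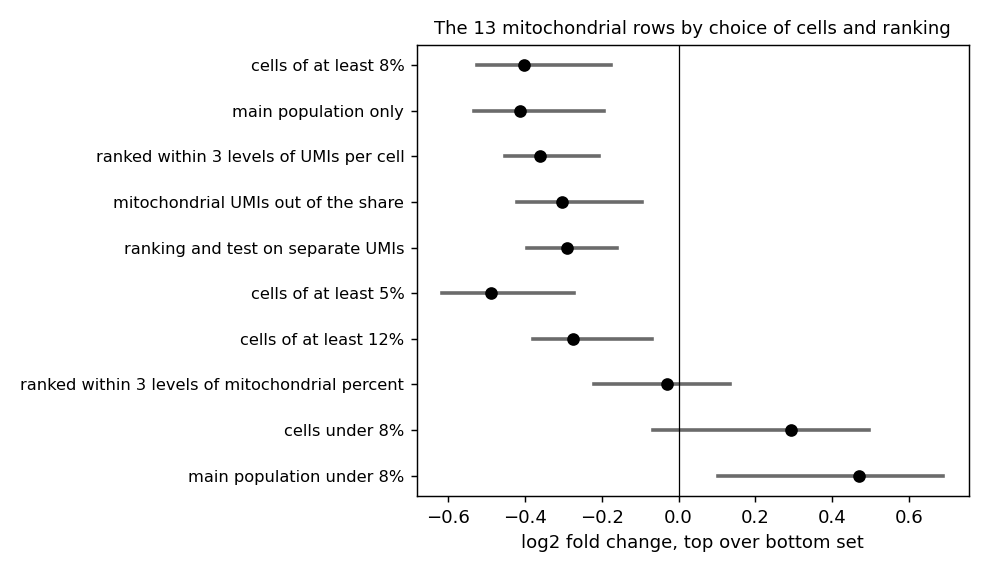
Log2 fold change of the 13 mitochondrial rows between the top and bottom set of cells, as the median (point) and the range (line) over the 13 rows, for different choices of cells and ranking. The points lie below 0 in the cells of at least 8%, at -0.40, and above 0 in the cells under 8%, at 0.29.

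Most other rows called between the sets did not turn in the cells under 8%. Of the 1224 called rows, 1164 were tested there, and 1010 of them (86.8%) had the same sign, 636 with a call. In 56 of these rows the opposite sign was called. Seen from the other side, 1682 rows were called in the cells under 8%. Of those, 302 had the opposite sign in the main comparison, whether called there or not. The share of equal signs over all rows is not given here. Of the rows that changed at least 2-fold, 58 of 59 tested kept their sign. In those cells 21.2% of the top and 40.7% of the bottom set lay outside the main population (medians of 12 libraries). Restricted to the main population, 957 of 1137 rows (84.2%) kept their sign, as did all 60 of the 2-fold rows tested. There 1324 rows were called, and 270 of them had the opposite sign in the main comparison.

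Other measures of the cells moved with the ranking as well. The median cell held fewer UMIs in the top than in the bottom set in 12 of 12 libraries, 2940 ± 583 against 3579 ± 779 (SD, n = 12), which has no test because the total is the ranking's denominator. When cells were ranked inside 3 levels of UMIs per cell, the ranges of those medians were 2251 to 4341 and 2349 to 4520, and 1096 rows were called, with 1219 of the 1224 called rows keeping their sign. Cells outside the main population made up 2.63% ± 1.46 of the top and 4.51% ± 2.46 of the bottom sets. They were fewer in the top set in 9 of 12 libraries (difference -1.88 points, exact sign-flip permutation p = 0.0107, adjusted p = 0.0161). The ranking rows are not stated to have been left out of the clustering that defines the main population. This test therefore cannot tell the difference apart from counts shared with the ranking. The median intronic fraction was 0.254 ± 0.0619 and 0.256 ± 0.0785, and did not pass the test (exact permutation p = 0.914). The part of depth in each row's change was not tested beyond these rankings.

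Females and males were also compared, which share no library. Tested within a sex, edgeR called 998 rows in females (12.1%) and 504 in males (6.12%), 361 of them in both. The fitted change of males went the same way for 920 (92.2%) of the 998 rows called in females. The fitted change of females did so for 483 (95.8%) of the 504 rows called in males. Over all 8235 rows tested the sign was shared by 5252 (63.8%). In 54 of the 73 rows that changed at least 2-fold over both sexes the fitted change was larger in females, with a median size of 1.61 on the log2 scale against 1.23 in males. By group, 552 rows (6.7%) were called in females at ZT10, 493 (5.99%) in females at ZT22, 221 (2.68%) in males at ZT10 and 301 (3.66%) in males at ZT22. The female cells carried more UMIs of the 4 rows, so their sets were ranked on more molecules, and male cells were ranked mainly on row13162. The part of either in these counts and sizes was not tested.

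The sex difference of the change itself was called for 64 rows, 0.777% of those tested, 34 with a more positive change in females and 30 with a more negative one (edgeR's interaction contrast). With ties broken at random in place of column order, an alternative chosen after seeing the data, 44 rows were called, all among the 64. Of the 64, 58 were also called between the sets over both sexes. The sign was shared by the sexes in 51 of the 64, where the change was larger in females for 44 and larger in males for 7. In the other 13 the fitted signs were opposite, and in 1 of them the change was called within both sexes. When female UMIs of the 4 rows were thinned to the male level before ranking, an alternative chosen after seeing the data, 16 rows were called and 14 of them were among the 64. The sex difference of row4947, the most positive, went from 2.14 to 1.38 on the log2 scale and that of row2820, the most negative, from -1.57 to -1.01, both with a call. Leaving out 1 library moved the count by over 1.5 times for 4 libraries, to 34 without female ZT10 replicate 2, 37 without male ZT10 replicate 1, 41 without female ZT22 replicate 1 and 37 without female ZT22 replicate 2. It was 72 without male ZT22 replicate 2 and 59 without male ZT10 replicate 2.

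**Figure D5:**
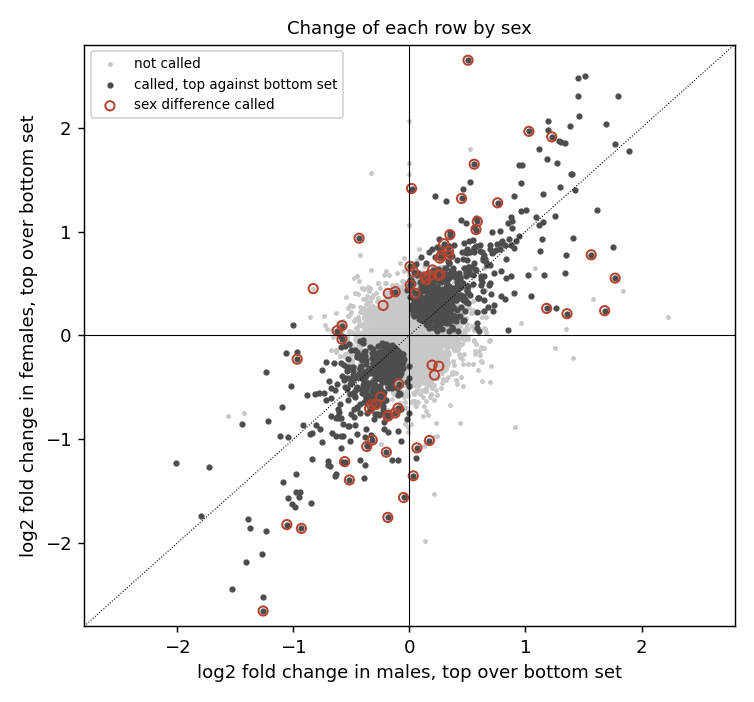
Log2 fold change between the top and bottom set in males (x axis) and females (y axis) for 8235 rows, in grey where not called, dark where called between the sets, and circled where the sex difference was called. The 64 circled rows lie away from the dotted line of equal change.

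Row4947 had the most positive sex difference. Its level was far lower in females, with 14.6, 1.90 and 23 CPM in the top sets at ZT10 and 53.7, 69.4 and 33.9 CPM at ZT22, against 328.8 to 810.6 CPM in the male top sets. In the female bottom sets it was 4.63, 0.479 and 5.42 CPM at ZT10 and 3.98, 6.19 and 5.17 CPM at ZT22, and in the male bottom sets it was 291.1 to 440.3 CPM. Each library was higher in its top set, 3.15-fold to 13.5-fold in females and 1.04-fold to 1.84-fold in males. The female top sets together held 295 UMIs of this row and the female bottom sets 45, so the female ratios rest on few molecules. The male sets held 5046 and 3681. The log2 change was 2.65 in females and 0.51 in males, a difference of 2.14 ± 0.25 (SE; adjusted p = 1.2e-07, edgeR).

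Row2820 had the most negative sex difference and was also far higher in males. In females it ran from 514.5 through 695.9 to 1284 CPM in the bottom sets and from 127.0 through 197.5 to 310.3 CPM in the top sets, with no overlap and a log2 change of -1.75. In males it ran from 3775 through 9628 to 16440 CPM in the bottom sets and from 4368 through 8231 to 13405 CPM in the top sets, which overlapped, and the log2 change of -0.19 did not pass edgeR's test (adjusted p = 0.14). The difference was -1.57 ± 0.11 (SE; adjusted p = 3.3e-14, edgeR), and without a call in the cells under 8% mitochondrial UMIs (-0.44, adjusted p = 0.054).

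Row2366 and row3445 were next in each direction, at levels of at most 39.9 CPM in any top or bottom set. Row2366 was higher in the top set in 6 of 6 female and 2 of 6 male libraries, with a sex difference of 1.40 ± 0.29 (SE; adjusted p = 0.0066, edgeR). Row3445 was lower in 6 of 6 female and 3 of 6 male libraries, with a sex difference of -1.51 ± 0.26 (SE; adjusted p = 0.00063, edgeR). Neither was called when the ranking and the test used separate UMIs, with differences of 1.35 and -1.10 (adjusted p = 0.3 for both in edgeR). With female UMIs thinned the difference of row2366 was 0.70 and that of row3445 -0.86, both without a call. The top and bottom sets held 752 UMIs of row3445, and 118 when the main population alone was ranked, too few to pass the filter on low counts. Its UMIs in females were 81 in the top and 286 in the bottom sets of all ranked cells, and 27 and 23 in those of the main population. Its sex difference therefore has no value in the main population. Row2366 held 492 and 474 UMIs, and its difference in the main population was 1.44 (adjusted p = 0.0058, edgeR).

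Between the times the change differed in 3 rows, 0.0364% of those tested (edgeR). Row9548 was lower in the top set in 6 of 6 ZT10 libraries, at 102.1 through 173.2 to 264.6 CPM against 140.9 through 321 to 444.9 CPM in the bottom set. At ZT22 it ran from 58.9 through 83.8 to 185.0 CPM in the top and from 48.7 through 75.0 to 190.2 CPM in the bottom set, and was higher in 4 libraries and lower in 2. The log2 change was -0.81 and -0.57 in females and males at ZT10 and 0.005 and 0.18 at ZT22, a time difference of 0.78 ± 0.10 (SE; adjusted p = 5.9e-06, edgeR).

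Row7541 was higher in the top set in 5 of 6 ZT10 libraries and lower in 5 of 6 ZT22 libraries (time difference -0.56 ± 0.10 SE, adjusted p = 0.014, edgeR). Row2563 was higher in 5 of 6 ZT10 and lower in 6 of 6 ZT22 libraries (-0.42 ± 0.083 SE, adjusted p = 0.02, edgeR). Both lost their call under many of the alternatives, and without male ZT22 replicate 2 the number of rows with a time difference was 12. Without female ZT10 replicate 1, male ZT10 replicate 3, female ZT22 replicate 1 or male ZT22 replicate 3 it was 1. No ZT10 library shared the first 6 digits of its deposited cell names with a ZT22 library, and the meaning of these digits is not stated, so time cannot be told apart from that code. No row was called for a sex difference that differed between the times by edgeR, DESeq2 or limma-voom, with 356 rows at an unadjusted p under 0.05 in edgeR, and 1 was called without male ZT22 replicate 2.

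Rows with a sex or time difference in the middle set, which shares no cell with the other sets, were followed between the sets. In the middle set 414 of 9315 rows (4.44%) differed between the sexes and 616 (6.61%) between the times by edgeR. Of the 217 rows higher in females, 181 were tested between the sets, and 42 (23.2%) were higher and 29 (16%) lower in the top set, against 8.27% and 6.59% of all rows tested, with a median log2 fold change of 0.067. Of the 197 rows higher in males, 161 were tested, and 38 (23.6%) were higher and 19 (11.8%) lower, with a median of 0.061. Of the 323 rows higher at ZT22, 298 were tested, with 50 (16.8%) higher and 33 (11.1%) lower. Of the 293 higher at ZT10, 274 were tested, with 48 (17.5%) higher and 30 (10.9%) lower. In all 4 lists both shares lay above those of all rows tested, and the medians, 0.0015 and 0.028 in the lists by time, lay near the -0.003 of all rows. The lists were not matched to all rows by level or spread, and the part of these in the shares was not tested.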

How the data were processed

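Single-cell RNA was measured in 12 libraries of mouse liver cells. The authors deposited a table of whole-number UMI counts (18326 numbered rows by 31003 cells) and a table of cells with total UMIs, rows detected, the mitochondrial percent, a caspase percent and an intronic fraction. Per the submitters' processing notes, Cell Ranger 6.1.2, Seurat and the mm10 build were used. How counts were assigned to near-identical rows, and any filter on cells, are not given in the sources used here. The deposited percent of mitochondrial UMIs and the deposited intronic fraction were used as they stand, although the latter is headed as a percent, with values between 0 and 1. Every column belonged to a sample of the series, and each cell's summed counts equalled its deposited total.

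UMIs were summed per library and set, leaving out the 4 ranking rows, which would differ by construction. The sums were fitted with edgeR 4.0.16 (R 4.3.3) by quasi-likelihood, with a term for each library and a top-minus-bottom effect in each of the 4 groups, so that each library was its own control. TMM scaling, edgeR's default filter on low counts and an adjusted p under 0.05 by Benjamini-Hochberg were used. Changes in both sexes together, in each sex, and their sex, time and sex-by-time differences are contrasts of that fit. Levels in CPM come from a joint TMM scaling of the top, middle and bottom sets. Those of the held-out rows were scaled over the top and bottom sets of their own ranking. Per-library measures were tested by exact sign flips. The fit was tested on simulated data first. Alternatives were DESeq2 1.42.0, limma-voom 3.58.1, other scalings, filters, sets of cells and rankings, each library left out, and a replicate block.

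Cells were clustered with scanpy 1.11.5 (2000 variable rows, 8 principal components, 15 neighbours, Leiden resolution 0.3). A cluster was set apart from the main population when its 10 leading rows were on median at least 8-fold higher than in the other cells, which held for 3 clusters of 2720, 1289 and 76 cells. No doublet caller was run and no doublet was removed. Markers and pathway lists need gene names and were not run. The ranking rule, row lists and alternatives were chosen with earlier results of these data known. Rows were named by rule. Between the sets these were rows with a call, at least 100 CPM in the higher set and the same sign in 12 libraries, taking the largest fold and the highest level in each direction. For sex and time differences these were the 2 largest in each direction with at least 10 CPM.

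Replicate numbers were checked for pairing. Deviations of same-numbered libraries correlated between -0.294 and 0.145 over 18 pairs, with 1 pair over 0.1, which gave no sign of pairing. Several same-numbered female and male libraries of a time do share the first 6 digits of their cell names. The 18 pairs also include libraries of different times, which share no such code, so this check cannot exclude a pairing. Replicates differed by more than sampling noise in all groups (chi-square per degree of freedom 6.08 to 57.5). Intervals and limits from counts cover counting error only.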

Additional observations from a re-analysis of the deposited data

Results flagged for a closer look

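The response to the ranking differed between females and males in 64 rows by edgeR's interaction test. The row with the most positive difference of log2 change (female minus male) was row4947, at 2.14, followed by row2366 at 1.40. The most negative differences were those of row2820 at -1.57 and row3445 at -1.51. In row4947 and row2820 the 6 female libraries moved one way by 2-fold or more while the 6 male libraries moved by less than 2-fold, and both rows were at far higher levels in males. The female bottom sets together held only 45 UMIs of row4947. The ranking of male cells rested on fewer UMIs, and the part of that in these differences was tested only by thinning the female UMIs, which gave 16 rows and differences of 1.38 in row4947, 0.70 in row2366, -1.01 in row2820 and -0.86 in row3445. Of these, row4947 and row2820 passed the test. In the main population alone row3445 had too few UMIs to be tested.

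Between the times the response differed in 3 rows by the same test, with differences (ZT22 minus ZT10) of 0.78 in row9548, -0.56 in row7541 and -0.42 in row2563. Row9548 was lower in the top set in 6 of 6 libraries at ZT10 and in 2 of 6 at ZT22.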

How the results depend on the processing

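The direction and call of row779, row5947, row8182 and row13161 held in all 27 alternatives and with each of the 12 libraries left out, with log2 fold changes of 0.73 to 1.97, 1.01 to 1.96, -1.79 to -0.74 and 0.86 to 1.67 over the alternatives. Row779, row5947 and row8182 were picked as called rows with the same sign in 12 libraries. Their direction with 1 library left out was therefore largely set by that choice. Most alternatives also reuse many of the same cells. Row4947, picked for the largest positive sex difference, kept its call and direction in all 26 alternatives run for it (1.38 to 2.50) and with each library left out. The count of rows called between the sets, 1224, was 796 with DESeq2, 725 with the first 6 digits of the cell names as a block, 2072 with no mitochondrial minimum, 580 on 1000 UMIs per cell and 594 on separate UMIs, and between 1013 and 1443 with 1 library left out. The replicate block gave 1126 rows between the sets, 56 for the sex difference, 2 for the time difference and 0 for sex by time, and a sex difference of the 4-row level of 576.8.

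The count for the sex difference, 64, was 39 with DESeq2, 34 with cells cut into an upper and a lower set, 125 in cells under 8% mitochondrial UMIs and 150 in the main population of these, 32 on 1000 UMIs per cell, 37 on separate UMIs, 23 within levels of mitochondrial percent, 29 when ranked by row13160 and row13162 alone, 16 with female UMIs thinned and 37 in the main population within levels of UMIs. With ties at random it was 44, and with 1 library left out it was 34 to 81. The count for the time difference, 3, was 6 with no filter on low counts. It was 1 with an upper and a lower set, at a mitochondrial minimum of 12%, with no minimum, within levels of UMIs, of intronic fraction or of mitochondrial percent, in the main population under 8%, with ties at random and with female UMIs thinned. It was 0 in edgeR's test in cells under 8% (425 rows at an unadjusted p under 0.05), on 1000 UMIs (403) and on separate UMIs (309), and 1 to 12 with 1 library left out. For sex by time it was 0 to 1.

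In cells under 8% the mitochondrial percent was higher in the top set by 0.747 points, row13719 was higher by 0.49 (by 0.68 in the main population of these) and the time difference of row2563 was 0.084. Row13719 was at 0.0061 within levels of mitochondrial percent. The intronic difference was 0.00178 within levels of UMIs and ranged from -0.00339 to 0.00411 with 1 library left out, positive only without male ZT22 replicate 2. The time difference of the 4-row level ranged from -118.6 to 11.1, and the sex difference from 528.1 to 657.8. The cause of these moves was not tested. Calls of a sex difference were lost in 7 alternatives for row2366, 9 of 22 for row3445, which could not be followed in the main population, and 1 for row2820, and of a time difference in 3 for row9548, 14 for row7541 and 18 of 25 for row2563, counting the 1 that turned it. Alternatives chosen after seeing the data were ties at random, the ranking by 2 rows, thinned female UMIs, and 2 restrictions to the main population. With the 6-digit block the time difference could not be fitted. A median of 2 to 3 UMIs of the ranking rows per male cell in the top set limits how finely male cells can be ordered.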

Other observations

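Male ZT10 replicate 2 was deposited in a pair of library parts. The second part held 88 cells, 64 of them ranked. Of these 64, 0 fell in the top, 61 in the middle and 3 in the bottom set, and 55 lay outside the main population. In this library 42.1% of the middle set had no UMI of the 4 rows, and the order of the columns placed those cells. The deposited caspase percent came to 138 UMIs over all cells, with 12 in the top, 37 in the middle and 33 in the bottom sets, too few to test between libraries.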
